A study of Mus musculus with 44 samples.

Results

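The set described here consists of m6A peaks of control liver that were found again after PCB126 and after the combination of Aroclor1260 and PCB126, but not after Aroclor1260 alone. Members were chosen from 4 peak lists, 1 for each treatment, that the authors called with their m6A libraries set against a library made with control IgG. A control peak belonged to the set when its span shared 1 bp or more with a PCB126 peak and with a combination peak of its strand, and none with an Aroclor1260 peak. The rule gave 436 of the 2091 control peaks, out of 17573 peaks in the 8 lists of the series. They lay at 218 loci, 207 of them with a gene symbol. Since the calls themselves chose the members, their absence after Aroclor1260 is a description and carries no test.

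The livers came from male mice of the inbred strain C57Bl/6J, fed a chow in which fat supplied 42% of the calories. All 4 treatments shared this diet. They were a single oral exposure at week 2 of a 12-week study to Aroclor1260, to PCB126 or to Aroclor1260 with PCB126, and vehicle as control. Polychlorinated biphenyls are persistent pollutants, sold as mixtures such as Aroclor1260, while PCB126 is a single congener that acts like dioxin through the aryl hydrocarbon receptor. The sources used here give neither doses nor ages. Each treatment had 5 input libraries, 5 m6A immunoprecipitates and 1 IgG immunoprecipitate from pooled material, 44 libraries in all. A list described its treatment as a whole and held no value for any animal, so no difference below can be set against the spread between mice.

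N6-methyladenosine, m6A, is a methyl mark on adenosines inside messenger RNA. In mammals a complex around Mettl3 and Mettl14 writes it, mostly near stop codons and in long internal exons, and reader proteins of the YTH family bind it and influence splicing, export, translation and decay. MeRIP, the assay used here, pulls down RNA fragments with an antibody against m6A and compares them with a background library. A peak is a stretch where the pulled-down fragments exceed that background. Its fold enrichment, a linear ratio computed by the authors' caller, is the value quoted for each peak below. A peak missing from a list can reflect less methylation, less of the transcript or a shallower library, and these cannot be told apart in peak lists.

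Sequence could be shown where a member touched a RefSeq promoter window, which reaches from 250 bases before to 50 after an annotated start. The search was partial and did not cover every member, since a gene strand was known for only 320 of the 436. It found 4 such members, and others may have been missed. At 3 of them the peak began close to the start of the gene. Bases are from RefSeq on GRCm38.p6, plus strand, 5′ to 3′, beginning 30 bases before the annotated start, and capitals mark bases inside the peak.
Ep300 (chr15:81586184-81586243): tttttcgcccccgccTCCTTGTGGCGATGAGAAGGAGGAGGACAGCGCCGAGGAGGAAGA
Golph3 (chr15:12321466-12321525): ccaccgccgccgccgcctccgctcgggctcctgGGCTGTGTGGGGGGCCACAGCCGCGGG
Ech1 (chr7:28825308-28825387): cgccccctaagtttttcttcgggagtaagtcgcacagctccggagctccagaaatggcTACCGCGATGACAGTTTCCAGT
Ep300 encodes a histone acetyltransferase, Golph3 a Golgi membrane protein and Ech1 a mitochondrial and peroxisomal enzyme of fatty acid breakdown. Their control folds were 3.0, 1.8 and 1.69. The Golph3 peak lay 48 bp from an Aroclor1260 peak and the Ech1 peak 49 bp, so at both genes an Aroclor1260 peak stood just beside the control span. Against input the Ech1 member overlapped an Aroclor1260 peak with a fold of 1.16.

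The fourth stretch lies inside Fgg, the gene of the fibrinogen gamma chain, where the window of a gene on the opposite strand covers an exonic block of the member. It is shown because it is the only internal exonic sequence of a member that this search found. Here the capitals mark GGAC, the centre of the common m6A consensus.
Fgg (chr3:83008374-83008557): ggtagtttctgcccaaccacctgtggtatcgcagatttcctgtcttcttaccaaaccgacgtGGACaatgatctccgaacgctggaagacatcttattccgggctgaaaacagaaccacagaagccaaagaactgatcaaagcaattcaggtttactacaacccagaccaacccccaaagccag
The whole Fgg peak covered 997 exonic bases from 83007923 to 83012927 on chromosome 3. Its fold was 2.07 after PCB126 and 2.57 after the combination, against 2.02 in control liver. The motif GGACT, searched on the transcript strand only, occurred in none of these 4 stretches, and GGAC occurred once in the Ep300 stretch and once in the Fgg stretch. In the whole windows these stretches come from, read on the strand of the peak, GGACT occurred in 0 of 4 and GGAC in 3, those of Ep300, Fgg and Ech1. Among 32851 RefSeq promoter windows of that length, 26.1% held GGACT and 65.6% held GGAC on the strand of the gene.

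The 4 IgG-referenced lists held 2082 peaks for Aroclor1260, 4129 for PCB126, 3683 for the combination and 2091 for the control. The Aroclor1260 list thus had about as many peaks as the control list, and those of the other exposures were longer. Sequencing depth, which affects list length, is unknown. Of the hepatocyte markers Alb, Apob, Ttr, Hnf4a and Cps1, 2 had an Aroclor1260 peak, 2 a PCB126 peak, 3 a combination peak and 2 a control peak, the last being Apob and Hnf4a. Short panels of defining markers gave few peaks for other cell types, and longer marker lists are counted at the end. The stellate cell panel (Acta2, Col1a1, Des, Lrat and Reln) and the cholangiocyte panel (Krt7, Krt19, Epcam and Sox9) had 0 peaks in each of these lists. Of the macrophage markers Adgre1, Clec4f, Vsig4, Cd5l and Csf1r, 1 had an Aroclor1260 peak, 0 a PCB126 peak, 1 a combination peak and 1, Cd5l, a control peak. Of the endothelial markers Pecam1, Cdh5, Kdr, Stab2 and Lyve1, 1 had an Aroclor1260 peak, 1 a PCB126 peak, 1 a combination peak and 0 a control peak. In whole liver, fewer cells of a type and less RNA per cell cannot be told apart.

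The rule's share of control peaks was 20.9% (Wilson 95% interval 19.2 to 22.6%). All intervals given here cover counting error only, and peaks that share a transcript share their source. In the same control list, 43.2% of peaks had no Aroclor1260 counterpart, 20.6% no PCB126 counterpart and 25.4% none after the combination. The mirror patterns were smaller. Control peaks missing only after PCB126 numbered 63, or 3.01%, and those missing only after the combination numbered 100, or 4.78%. A further 955 control peaks were found after every exposure and 192 after none. When each list was reduced to its 2082 highest folds, the counts became 264 missing only after Aroclor1260, 130 only after PCB126 and 111 only after the combination. The Aroclor1260 pattern stayed the most frequent of the 3, by a smaller margin.

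**Figure D1:**
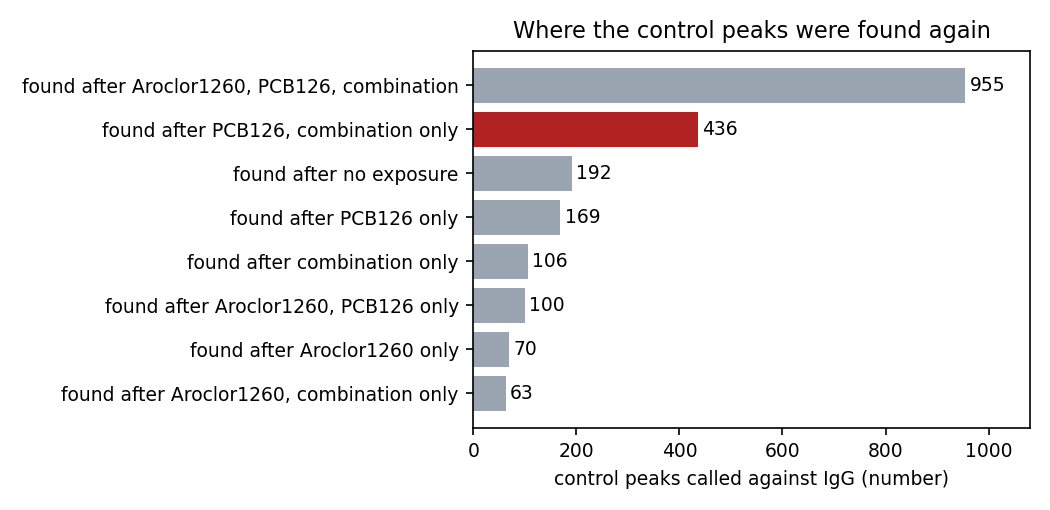
Bars give the number of the 2091 control peaks called against IgG with each pattern of detection after the 3 exposures. The red bar is the set described here, 436 peaks, and it is second in length to the 955 peaks found after every exposure.

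Members were moderately enriched. Their control folds ran from 1.15 to 41.0 with a median of 3.0, and 361 of 436 had a fold of at least 2. The other 1655 control peaks had a median of 2.6, the peaks found after every exposure 3.4, those missing only after PCB126 1.83 and those missing only after the combination 2.0. The members were therefore stronger by median than the mirror sets and weaker than the peaks found everywhere. The overlap rule and the unequal lengths of the lists bear on both fold and width, so these medians describe the sets and are no test. Exonic width had a median of 151 bp, against 196 bp in the other control peaks and 251 bp in the peaks found after every exposure. A share of 27.3% of members spanned more than 1 exonic block, against 32.8% of the other control peaks.

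Gene position was given for 314 members whose RefSeq gene runs on the strand of the peak. Their median position was 0.818 of the gene span, where 0 is the start and 1 the end, and the final 20% of it held 53.8% of them. In the other control peaks the median was 0.779 and the share 46.6%. The first 20% of the span held 6.05% of members and 10.1% of the other control peaks. Both sets thus leaned to the end of the gene. Of all members 426 were on the plus strand, or 97.7%, in a control list that was itself 96.3% plus-strand.

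**Figure D2:**
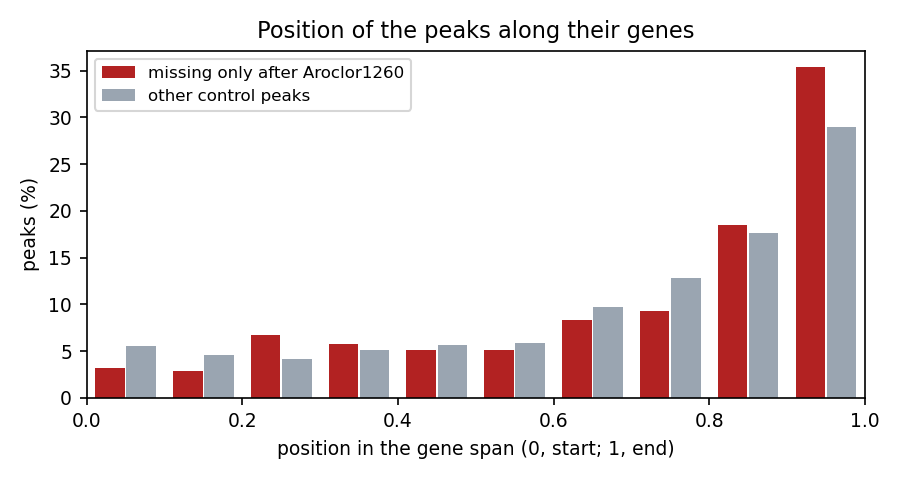
The horizontal axis is the position of the peak centre in its gene, from start (0) to end (1), and the vertical axis the percentage of peaks in each bin of the span. Red bars are the 314 members on the strand of their gene and grey bars the other control peaks on the strand of theirs. In both, the last part of the gene holds the tallest bars.

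The strongest member belonged to the identifier ENSMUSG00000048489, for which no single RefSeq gene was found, at chromosome 6 from 116650754 to 116652746. Its fold was 20.4 after PCB126 and 41.8 after the combination, against 41.0 in control liver. Against input it was 17.9 and 16.9, against 11.3 in control, and Aroclor1260 had a peak there with neither reference. Among named loci Zcchc2, a gene for a zinc knuckle protein, led with a member on chromosome 1 from 106030737 to 106031136. That peak had 21.6 after PCB126 and 22.0 after the combination, against 38 in control. Zcchc2 held 4 members among its 6 control peaks and had 0 Aroclor1260 peaks in either list. These folds come from lists with separate backgrounds, so they are set side by side and not compared in size.

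Ppig, which encodes the nuclear cyclophilin G, held 4 members, and they were all of its control peaks. The strongest, on chromosome 2 from 69749379 to 69749528, had 7.1 after PCB126 and 4.2 after the combination, against 14.0 in control. Against input Ppig had 4 peaks in the control and 0 after each of the 3 exposures, so the pattern of the IgG lists did not extend to input. B230219D22Rik on chromosome 13 had 17.1 after PCB126 and 13.9 after the combination, against 13.5 in control. Tnfsf10, which encodes TRAIL, a ligand of death receptors, had its only control peak on chromosome 3 from 27335418 to 27335865. It gave 28.6 after PCB126 and 12.7 after the combination, against 11.8 in control.

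Lifr, the receptor of leukaemia inhibitory factor, had 2 control peaks, and both were members with a control fold of 10.6. The wider one, on chromosome 15 from 7188157 to 7191653, had 12.8 after PCB126 and 11.4 after the combination. Lifr had 0 Aroclor1260 peaks with either reference and also 0 combination peaks against input. Usp47, a deubiquitinase gene, held 5 members among 8 control peaks, and the strongest gave 14.8 after PCB126 and 8.47 after the combination, against 11.2 in control. Nufip2, a gene for an RNA-binding protein, had 3 control peaks, and all were members. The strongest had 9.4 and 6.0 after these exposures, against 10.6 in control. Zfp655, a zinc finger gene, gave 36.8 and 8.2, against 10.4 in control.

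**Figure D3:**
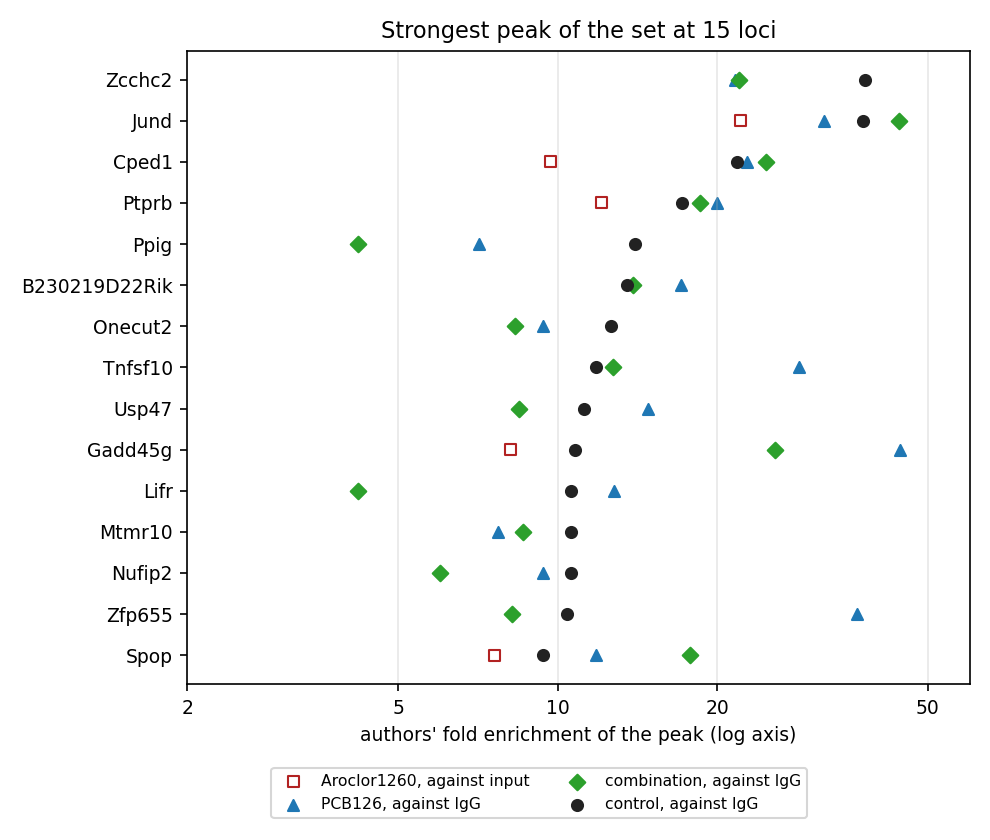
For the 15 named loci with the highest control fold, markers give the authors' fold enrichment of the strongest member on a log axis, after PCB126, after the combination and in control against IgG, with the first of the tied Lifr peaks drawn, and open squares the fold of an overlapping Aroclor1260 peak called against input. Squares appear at Jund, Cped1, Ptprb, Gadd45g and Spop, and the other 10 loci have none.

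The second reference gave a different answer for several of the strongest members. Jund, an AP-1 subunit gene, held its member on a minus-strand identifier opposite the gene, on chromosome 8 from 70699735 to 70700080. Against input that place had an Aroclor1260 fold of 22.1, a PCB126 fold of 47.1 and a combination fold of 32.9, against 26.7 in control. Cped1 at chromosome 6 from 22254509 to 22255157 had 9.7, 18 and 13.8 in the same order, against 9.33 in control. Ptprb, the receptor tyrosine phosphatase of endothelial cells, had 12.1, 17.7 and 13.4, against 7.63 in control. Gadd45g, a stress-induced growth arrest gene, had 8.13, 19.1 and 22.5, against 6.62 in control. Spop, an adaptor of a cullin ubiquitin ligase, had 7.61, 8.04 and 8.74, against 4.88 in control. At these 5 loci the peak was absent after Aroclor1260 with IgG as background and present with input as background. Jund differed from the other 4 in having 2 Aroclor1260 peaks against IgG, up to 36.0, and its member lay 90 bp from an Aroclor1260 peak. The other 4 loci had 0.

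Over the whole set, 29 members, or 6.65% (4.67 to 9.39%), overlapped an Aroclor1260 peak called against input, where 18.5% of all control peaks did. A PCB126 peak against input was found at 324 members, 74.3% against a background of 62.1%, and a combination peak at 299, 68.6% against 64%. The control list called against input held 85 members, 19.5% against 24.4%. Of these 85 members, 23 overlapped an Aroclor1260 peak called against input, or 27.1%, while 249 of 377 such peaks, or 66.0%, did so among those found after every exposure. These lists use the same m6A libraries as the rule, so they are no independent check. They held 506 peaks for Aroclor1260, 2178 for PCB126, 2284 for the combination and 620 for the control. A shorter list offers fewer peaks to overlap. The other strong members with an Aroclor1260 peak against input were at Arhgap5, Foxo1, Shpk, Mia2 and Socs5. Foxo1, the insulin-regulated transcription factor, had 1.83 after Aroclor1260, against 2.6 in control, and its member lay 49 bp from an Aroclor1260 peak called against IgG. Shpk, the gene of sedoheptulokinase, had 5.38 after Aroclor1260, against 4.96 in control.

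**Figure D4:**
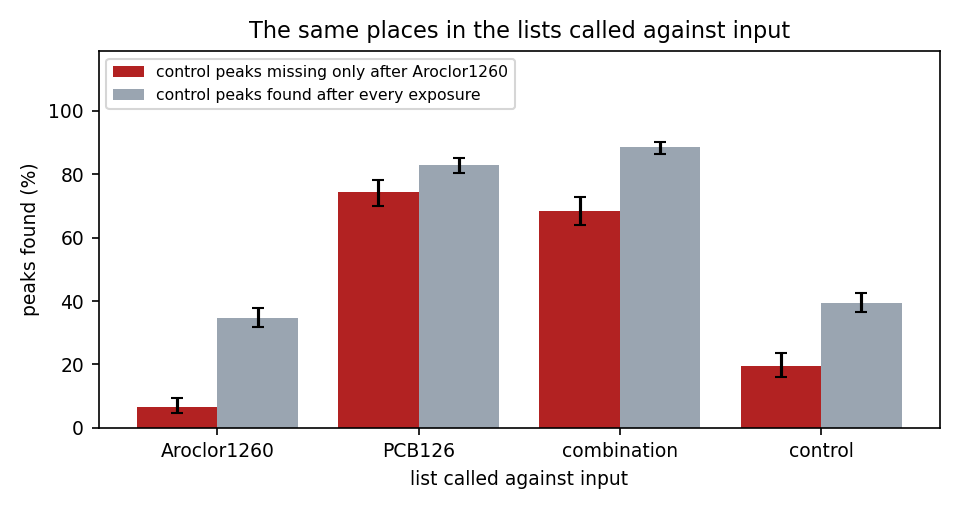
Bars give the percentage of peaks that overlap a peak in each list called against input, with Wilson 95% intervals, for the 436 members (red) and the 955 control peaks found after every exposure (grey, 34.8, 82.9, 88.5 and 39.5% in the order drawn). Members range from 6.65% in the Aroclor1260 list to 74.3% in the PCB126 list. The lists differ in length, at 506, 2178, 2284 and 620 peaks in the order drawn.

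A stricter subset showed the same pattern with both references. It held 42 members, 9.63% of the set, where 8.18% of all control peaks called against IgG had that pattern against input. In the control list called against input, 216 of 620 peaks, or 34.8%, were absent after Aroclor1260 and found after both other exposures. Against input, the Aroclor1260 list held 506 peaks, the PCB126 list 2178 and the combination list 2284, so this share depends on list length. The highest control fold against input within the subset was the 11.3 of ENSMUSG00000048489 given above. Tnfsf10 was highest among loci with a symbol, at 7.29, where PCB126 had 19.3 and the combination 12.9. The Zcchc2 member described above had 11.6 after PCB126 and 10.3 after the combination, against 6.65 in control.

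Epm2aip1, which encodes a partner of the glycogen phosphatase laforin, had 4 control peaks against IgG, and all were members with control folds from 5.0 to 6.6. These 4 peaks overlapped in pairs, as 8 members of the set did with another member. Onecut2, a transcription factor gene of the hepatic lineage, had 8 control peaks, all of them members, with control folds from 1.4 to 12.6. Onecut2 had 6 PCB126 and 6 combination peaks against IgG and 0 Aroclor1260 peaks in either list. Purg, a gene for a nucleic acid-binding protein, had 3.29 after PCB126 and 4.62 after the combination against input, against 6.0 in control. Dph7, an enzyme gene of diphthamide synthesis, had 9.6 and 7.33 against input, against 5.67 in control.

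Zbtb10, a zinc finger repressor gene, held 3 members among 4 control peaks. The highest control fold against input at this locus was 5.44. Spry1, a feedback inhibitor of receptor tyrosine kinases, had 3 control peaks, all members, with control folds from 1.8 to 6.4. Its strongest member, on chromosome 3 from 37642629 to 37642875, had 7.4 after PCB126 and 8.2 after the combination, against 6.4 in control. Mtmr10 held its member on a minus-strand identifier opposite the gene. Some loci of the subset had Aroclor1260 peaks called against IgG elsewhere, as Tor1aip2, a gene for an activator of torsin ATPases, with 6.

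The set divided by locus into places with no Aroclor1260 peak and places with some. No Aroclor1260 peak called against IgG was listed at 106 of the 218 loci, 48.6%, and 99 of these had none against input either. Among all 597 control loci the shares were 29.8% and 28.5%. The rule admits only peaks without an overlapping Aroclor1260 peak, so it favours such loci and the comparison is no test. The 106 loci held 271 members with a median control fold of 3.4, and the other 112 loci held 165 members with a median of 2.6. A single member was found at 122 loci, 2 or more at 96 and 5 or more at 18.

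Long runs of members marked several genes of transcription and chromatin. Kat6a, which encodes a histone acetyltransferase, and Zfhx3, a homeobox transcription factor gene, each held 9. At Kat6a they were 9 of 10 control peaks, with folds from 1.47 to 8.6, and the locus had 8 peaks after PCB126 and 10 after the combination. At Zfhx3 they were 9 of 12 control peaks with folds from 1.5 to 5.2, and the locus had 23 peaks after PCB126 and 15 after the combination. Kmt2e, a SET-domain gene, held 7 of 9 with folds from 2.0 to 7.0. AI661453 held 7 of 8 with folds from 2.8 to 7.6. Each of these 4 loci had 0 Aroclor1260 peaks against IgG and against input, and none had a control peak against input, so their pattern could be seen with IgG only.

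The distance to Aroclor1260 signal separated near misses from wide gaps. The nearest Aroclor1260 peak on the same strand lay within 100 bp at 44 members, 10.1%, and within 1000 bp at 105, 24.1%. Where the same locus had an Aroclor1260 peak on that strand, at 158 members, the median gap was 298.5 bp. Just inside the rule were Ccpg1 with a gap of 36 bp and Amacr, Ccdc71, Emilin1 and Golph3 with 48 bp each. Just outside it, control peaks at 1810013L24Rik, Abcb4, Abhd15 and Akap9 overlapped an Aroclor1260 peak by 1 bp. Of the 955 peaks found after every exposure, 63 overlapped by at most 50 bp. Leaving out members with an Aroclor1260 peak within 100 bp left 392.

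**Figure D5:**
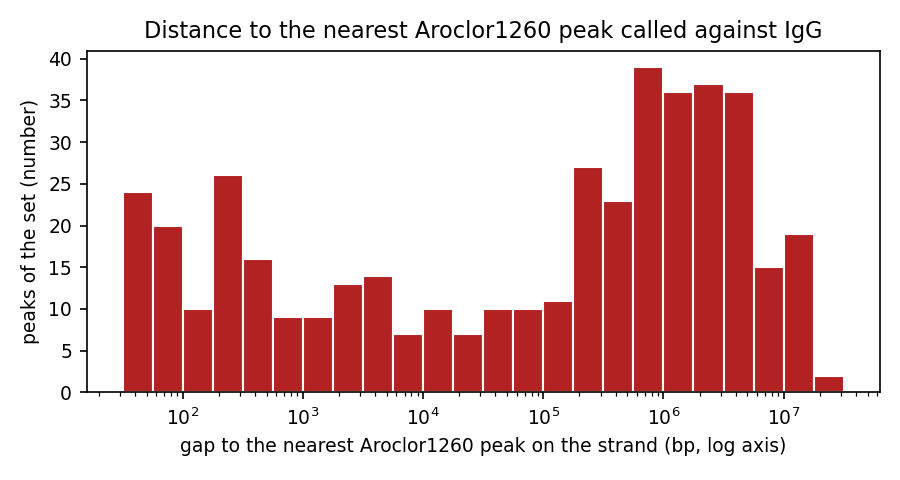
The horizontal log axis is the gap in bp from members to the nearest Aroclor1260 peak called against IgG on the same strand. The vertical axis is the number of members. Gaps beyond the axis are not drawn, as at Usp9x with 60335279 bp and Malat1 with 38593368 bp. A first group lies below 1000 bp, with 105 members, and a second lies far from any Aroclor1260 peak.

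Gene lists were counted by locus, where 218 of 597 control loci, 36.5%, held a member. Growth factor and cytokine signalling had a member at 6 of 7 control loci. At Lifr, Ifngr1 and Ifnar2 no Aroclor1260 peak was listed, while Klb, the co-receptor of fibroblast growth factor 21, had 5 and Bmp2 had 2. Ifngr1, the ligand-binding chain of the interferon gamma receptor, had a single control peak, with 5.1 after PCB126 and 14.0 after the combination, against 6.8 in control. Ifnar2, a chain of the type I interferon receptor, held 3 members, all of its control peaks, with folds from 2.6 to 4.0. The Aroclor1260 peaks of Bmp2 reached 24.9. Its member had a control fold of 3.8, and the other of its 2 control peaks 37.5.

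Chromatin regulators had a member at 6 of 7 control loci as well, namely Arid1b, Setd1b, Setd2, Ash1l, Ep300 and Chd7. Unlike Kat6a and Kmt2e, which were not on the list, each of these had Aroclor1260 peaks elsewhere at the locus, from 6 at Setd2 to 12 at Ash1l. Setd2, the histone H3 lysine methyltransferase that marks transcribed genes, held 4 members of 11 control peaks with folds from 2.2 to 5.2. Ep300 also held 4 of 11, with folds from 1.9 to 4.8. Ash1l held 2 of 10, Arid1b 1 of 8, Setd1b 1 of 11 and Chd7 1 of 9, where 20.9% of all control peaks were members. A locus with many control peaks has more chances to hold a member, so the count by locus is no sign of an excess. Here the set covers parts of a transcript and not the gene. Counts this small in lists chosen with earlier results known are a description only.

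Hepatocyte transcription factors had a member at 2 of 7 control loci, Onecut2 and Cebpd, and neither had an Aroclor1260 peak. Cebpd, an acute-phase transcription factor gene, had 10.1 after PCB126 and 12.9 after the combination, against 4.3 in control. Of transport genes, both control loci had one. Slco1b2, an uptake transporter of hepatocytes, had 5 control peaks, all members with no Aroclor1260 peak at the locus, and their folds ran from 1.38 to 2.75. Against input Slco1b2 had 4 control peaks, 1 combination peak and 0 peaks after PCB126 or Aroclor1260, so the absence there was not particular to Aroclor1260. Abcb4, the phospholipid transporter of the canalicular membrane, held 1 member and had 8 Aroclor1260 peaks. Ubiquitin ligases had 3 of 7, at Fbxo21, Rnf103 and Nedd4, each with other Aroclor1260 peaks.

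Several metabolic lists had shares near the 36.5% of all control loci. Fatty acid oxidation had 2 of 6 control loci, Ppara with a control fold of 2.43 and Slc27a2 with 1.46, the second on an identifier opposite the gene. Lipogenesis had 2 of 6, Mlxipl with 1.7 and Acsl1 with 1.49, and glucose and insulin response 1 of 7, Foxo1. Por, the electron donor of cytochromes P450, held 3 members up to 3.6 and was the only one of 3 such loci. Coagulation had 2 of 7, F10 with 2.0 and Fgg. Acute phase genes had 1 of 11, Serpina3n with 2 members up to 2.52. Each of these loci except Fgg had Aroclor1260 peaks elsewhere. Apolipoproteins had 0 of 8 and clock genes 0 of 2.

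Among the remaining lists, the nuclear m6A reader gene Ythdc1 was the only 1 of 3 machinery loci. Its 2 control peaks, 3.6 and 2.4, were both members with no Aroclor1260 peak at the locus, while PCB126 had 10 peaks there and the combination 3. Atf4, the translation-controlled stress factor, was 1 of 6 unfolded protein response loci with 2.35, and Tnfsf10 was 1 of 2 death receptor loci. Mt1, a metallothionein gene and the only control locus of glutathione and metal defence, had 1.37, and COX1, 1 of 3 mitochondrially encoded loci, had 1.55, both weak peaks near the lower end of the set. Of early response genes, only Jund of 5 had a member, on the opposite strand.

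Markers of other cell types were few. They comprised Ptprb and Bmp2 of 4 endothelial loci, Dcn, a stellate cell and fibroblast gene, as the only 1 on its list, and Mpeg1 as 1 of 2 macrophage loci. Their control folds were 17.2, 3.8, 2.2 and 2.6. Mpeg1 held 1 member among 5 control peaks and had 6 Aroclor1260 peaks called against IgG, up to 10.8. Bmp2 had 2 such Aroclor1260 peaks, and Ptprb and Dcn had 0. Whether a change in cell composition moved the member peaks was not tested. Targets of the aryl hydrocarbon receptor, lymphocyte and neutrophil markers and cholangiocyte markers had 0 control loci with a peak.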

How the data were processed

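Liver RNA of 4 treatments was measured by MeRIP in 44 libraries, and the deposited files were 8 peak lists, 1 per treatment against input and 1 against IgG. The tools named, per the submitters' processing notes and in no stated order, were BWA 0.7.17, Trimmomatic, bcl2fastq 2.20.0.422 and FastQC 0.10.1, and the build was mm10. The file titles name the caller MeTPeak without version or settings. Per the file headers, each peak has a fold enrichment (a ratio), a p-value and the log10 of its false discovery rate, all the authors' own. The deposited coordinates were read as BED and are printed counted from 1. Replicates were joined by the authors, so depth per sample is unknown.

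Overlaps, gaps and counts were computed with Python 3.11.15, pandas 2.3.3, NumPy 2.4.6 and SciPy 1.17.1, and the overlap code was tested on simulated lists. Identifiers were named by place, after the RefSeq gene (GRCm38.p6) holding at least 80% of their exonic peak bases, or of the only protein-coding gene among several. Of 1512 identifiers 1395 were named, and those with the same name formed a locus. Antisense and overlapping genes cannot be told apart by place. The promoter table gave a strand for 320 members.

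Members and gene lists were chosen with earlier results of these data known. Named were the 15 strongest loci, the 5 with most members, the 10 strongest with the same pattern against input, the 10 strongest with an Aroclor1260 peak against input, list members and the nearest misses. Alternatives changed the overlap, strand, reference, thresholds, list length and unit. Sequence motifs over whole peaks were not analysed here, since no genome was used, and 1 gene counted in a list is not reported here by name.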

Additional observations from a re-analysis of the deposited data

How the results depend on the processing

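The 436 peaks became 229 with a reciprocal overlap of 50%, 216 with the lists called against input and 264 with all lists reduced to the same length, and between 361 and 436 under the other alternatives for that count. The share of control peaks, 20.9%, was 10.9% with reciprocal overlap, 34.8% against input, 12.7% with equal numbers, 18.8% when an Aroclor1260 peak within 100 bp counted as found, 25.3% with a fold of at least 2 in every list, 23.7% with that fold in the control only and 18.6% by locus. The 218 loci became 109 against input and 113 by locus. Reciprocal overlap also lowered the members with the same pattern against input to 27, the loci without an Aroclor1260 peak to 67 and the plus-strand members to 223, which were 257 with equal numbers. The median control fold was 3.4 with reciprocal overlap and 3.6 with a control fold of at least 2 or with equal numbers, and the median width was 250 bp with the first and 200 bp with the other 2 alternatives. The median gap to an Aroclor1260 peak of the locus, an alternative added after seeing the data, was 0 bp with reciprocal overlap and 198 bp with equal numbers. Also added after seeing the data, control peaks missing only after PCB126 numbered 130 with equal numbers and 10 against input, and those missing only after the combination 111 and 15. The motif in whole peaks was not run, since no genome was used. No paired analysis was possible because the lists hold no value per animal, and no replicate could be left out. Depth is unknown, so the absence of a peak is not evidence of absent methylation.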

Other observations

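Gene families picked by symbol after their values were seen are given beside the shares over all control loci, of which 36.5% held a member and 29.8% had no Aroclor1260 peak called against IgG. All 6 deubiquitinase loci of the Usp family with a control peak held a member, namely Usp8, Usp9x, Usp10, Usp16, Usp25 and Usp47, and 4 of them, Usp9x, Usp16, Usp25 and Usp47, had no such peak. Of 8 Zfp zinc finger loci, 6 held a member and 3 of these had none, namely Zfp592, Zfp639 and Zfp655. Of 5 Zbtb loci, 3 held a member, and Zbtb10 alone had none.

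Further loci with 5 or more members, given as values, were Dsp with 5 members of 7 control peaks, Dsg2 with 5 of 6, Rara with 5 of 6, Jmjd1c with 7 of 10, Smarca2 with 7 of 13 and Aox3 with 5 of 7. Dsg2 had 1 Aroclor1260 peak called against IgG and the others 0. Dsp encodes desmoplakin and Dsg2 a desmosomal cadherin, Rara a retinoic acid receptor, Jmjd1c a protein of the histone demethylase family, Smarca2 a chromatin remodelling ATPase and Aox3 an aldehyde oxidase.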
